A study of Arabidopsis thaliana with 9 samples.

Results

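The mitochondrion-encoded genes of Arabidopsis thaliana were followed in seedlings of 3 genotypes, as the rows of the deposited table whose locus number starts with ATMG. The rule uses the locus number alone and found 31 loci among the 20777 of the table. Levels came from 9 Affymetrix ATH1 arrays, 3 biological repeats each of a line labelled 35S::AVP1, a line labelled with extra BRI1, and wild type. All plants were of the Col-0 ecotype and untreated, grew at 22 °C on MS medium under a day of 16 h light and 8 h dark, and were taken at growth stage 1.03, of which the vegetative part of the seedling was used. 35S::AVP1 places AVP1, the proton-pumping pyrophosphatase of the vacuole, behind the 35S promoter, a strong viral promoter active in most plant tissues. The other line carries BRI1, the brassinosteroid receptor. Its genotype label reads pBRI1::BRI1 but its source name reads 35S::BRI1, so the promoter is unsettled and it is named the BRI1 line below. The labels do not say how many independent transformants each line stands for. The series is about leaves made larger by different routes, and the question here was whether signals of the mitochondrial genome differ between the lines and wild type.

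Plant mitochondria keep a small genome of their own, which encodes some subunits of the respiratory chain and of ATP synthase, proteins that mature cytochrome c, and part of the mitochondrial ribosome. Most mitochondrial proteins are encoded in the nucleus and imported, so the respiratory complexes are built from products of both genomes. Mitochondrial transcripts are edited, spliced and trimmed by proteins that are themselves encoded in the nucleus. In the RefSeq gene table (assembly TAIR10.1) the mitochondrion has 33 protein-coding entries. They are 9 nad entries for complex I, 1 cob entry for complex III, 3 cox entries for complex IV, 6 atp entries for ATP synthase, 5 ccm entries for cytochrome c maturation, 7 ribosomal protein entries, matR, a maturase, and mttB, a transport protein. That table uses other identifiers for these entries, and 0 of the 31 ATMG numbers were found in it. It does not show which of the 31 loci are among the 33 entries, and the 31 should not be read as those genes. The loci are therefore given by number, with no symbol or role. Their order below follows size of difference and locus number.

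On the deposited log2 scale the array medians ran from 6.34 to 6.42. Arrays of 1 genotype correlated with each other across loci at 0.990 to 0.997, and the arrays of the BRI1 line with wild type arrays at 0.990 to 0.997. The arrays labelled 35S::AVP1 correlated with the other 6 at 0.980 to 0.987, lower than either. BRI1 RNA was at 12.28 ± 0.09 in the BRI1 line and 9.55 ± 0.03 in wild type (SD, n = 3 each). AVP1 RNA was at 12.54 ± 0.04 in the arrays labelled 35S::AVP1 and 12.63 ± 0.07 in wild type (SD, n = 3 each), a log2 difference of -0.09 (95% interval -0.25 to 0.07), so the label is not borne out by a higher AVP1 signal. The sources used here do not say which stretch of AVP1 the probes cover. Array data give no counts, and the number of arrays limits the precision.

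Signals of the mitochondrion-encoded loci were low. Their mean level over the 9 arrays ran from 3.78 for ATMG00130 to 6.51 for ATMG01220, with a median of 4.52, and the level in single arrays from 3.58 to 7.06. Set within each array, the mean rank of a locus lay between the 10.8 percentile and the 51.7 percentile of all loci. The mean of 12 loci was below the lowest 25th percentile of the arrays (4.34), and the mean of 1 locus, ATMG01220, was above every array median. After ATMG01220 the brightest were ATMG00660 (6.16) and ATMG01370 (6.13), and above ATMG00130 the dimmest were ATMG01400 (3.85) and ATMG00060 (3.90). The 73 chloroplast-encoded loci of the same arrays had mean levels of 6.05 to 14.22, with a median of 11.70. ATMG00660 was at 6.25, 6.02 and 6.06 in the arrays labelled 35S::AVP1, at 6.09, 5.9999 and 6.16 in the BRI1 line, and at 6.58, 6.34 and 5.90 in wild type, so that its genotypes overlapped. ATMG00130 was at 3.75, 3.92 and 3.84 in the arrays labelled 35S::AVP1, at 3.74, 3.81 and 3.87 in the BRI1 line, and at 3.58, 3.82 and 3.68 in wild type. The lowest of these was the lowest value of any member, and its genotypes overlapped too. ATMG01400 was at 3.92, 3.74 and 3.83 in the arrays labelled 35S::AVP1, at 3.89, 3.83 and 3.81 in the BRI1 line, and at 3.95, 3.81 and 3.83 in wild type, again with overlap between all genotypes. Probes differ in how strongly they bind, so these ranks describe signal and not which gene has more RNA, and the table holds no detection calls. Plant mitochondrial transcripts mostly lack the long poly(A) tails of nuclear messengers. The labels give only a standard Affymetrix labelling protocol and not its primer, so how the labelling caught these transcripts was not tested.

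**Figure D1:**
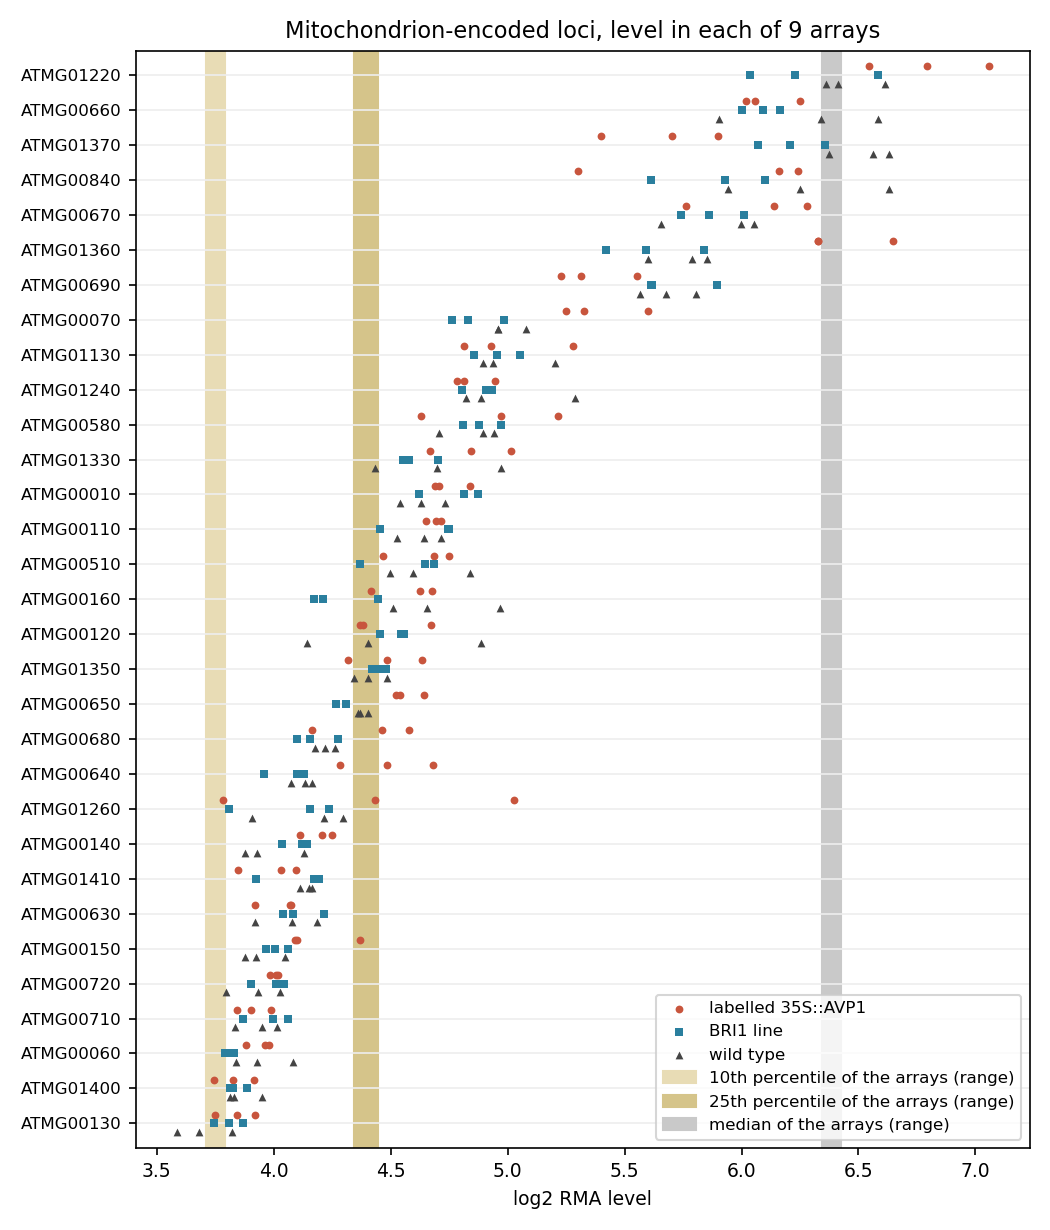
Level of each of the 31 mitochondrion-encoded loci (log2 RMA level) in each of 9 arrays, ordered by mean level, with circles for arrays labelled 35S::AVP1, squares for the BRI1 line and triangles for wild type. Shaded bands give the range over arrays of the 10th percentile, 25th percentile and median of all loci. All but ATMG01220 have their mean at or below the array medians of 6.34 to 6.42.

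Against wild type, the arrays labelled 35S::AVP1 differed at 4 of the 31 loci (limma, Benjamini-Hochberg adjusted p under 0.05 over all loci). ATMG01360, ATMG00070 and ATMG00640 rose and ATMG01370 fell. The 4 loci are 12.9% of the members, beside 11.1% of all loci called in this comparison, so the share called was near that of the whole array. By direction, 6.31% of all loci rose and 4.76% fell. The median log2 difference was 0.07 over the 31 loci, with 17 positive and 14 negative. Over all loci it was 0.05, with 13115 positive and 7662 negative. After quantile normalization the medians were 0.00 over the members and 0.01 over all loci. No single direction thus ran through the mitochondrial loci as a group, and the largest differences in each direction came from the loci described next.

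ATMG01360 had the largest rise. It was at 6.33, 6.65 and 6.32 in the arrays labelled 35S::AVP1, at 5.42, 5.84 and 5.59 in the BRI1 line, and at 5.79, 5.85 and 5.60 in wild type. Every array labelled 35S::AVP1 was above every other array, while the BRI1 line and wild type overlapped. The log2 difference from wild type was 0.69 (SE 0.13, 95% interval 0.41 to 0.97, 1.61-fold; limma adjusted p = 0.00639). The call held without any 1 of the 9 arrays (0.58 to 0.74, adjusted p up to 0.0246).

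ATMG01370, the next locus number, went the other way. It was at 5.40, 5.90 and 5.70 in the arrays labelled 35S::AVP1, against 6.63, 6.37 and 6.56 in wild type. The BRI1 line lay between them, at 6.21, 6.07 and 6.36, and overlapped with neither group. The log2 difference of the arrays labelled 35S::AVP1 from wild type was -0.85 (SE 0.13, 95% interval -1.14 to -0.57; limma adjusted p = 0.00199), a level 1.81-fold lower than in wild type. This call also held without any 1 of the 9 arrays (-0.97 to -0.72, adjusted p up to 0.00799). Of the 31 loci, ATMG01360 and ATMG01370 were those with a difference of over 1.5-fold between the arrays labelled 35S::AVP1 and wild type.

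The rises of ATMG00070 and ATMG00640 were smaller and close to the threshold. ATMG00070 was at 5.60, 5.33 and 5.25 in the arrays labelled 35S::AVP1, against 5.08, 4.96 and 4.96 in wild type, a log2 difference of 0.40 (SE 0.10, 95% interval 0.17 to 0.62; limma adjusted p = 0.0305). The groups did not overlap, but the call was lost without replicate 1 (adjusted p = 0.0873) or replicate 2 (0.0598) labelled 35S::AVP1, or without wild type replicate 2 (0.0993) or 3 (0.0762). ATMG00640 was at 4.28, 4.68 and 4.48 in the arrays labelled 35S::AVP1, against 4.07, 4.13 and 4.16 in wild type, a log2 difference of 0.36 (SE 0.10, 95% interval 0.14 to 0.58; limma adjusted p = 0.0450). Here too the groups did not overlap. The call held without replicate 1 labelled 35S::AVP1 (adjusted p = 0.0155) and was lost when any 1 of the other 8 was left out (adjusted p 0.0522 to 0.137). The wild type levels of ATMG00640 lay under the arrays' 25th percentiles (4.34 to 4.45), and low signals compress differences on this scale. After quantile normalization ATMG00070 (adjusted p = 0.0588) and ATMG00640 (adjusted p = 0.0797) were not called, which left 1 rise and 1 fall. Median centring left 2 rises and 1 fall, with ATMG00640 lost (adjusted p = 0.0855). Of all loci 10.4% were called after quantile normalization and 10.3% after median centring, against 11.1% as deposited.

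**Figure D2:**
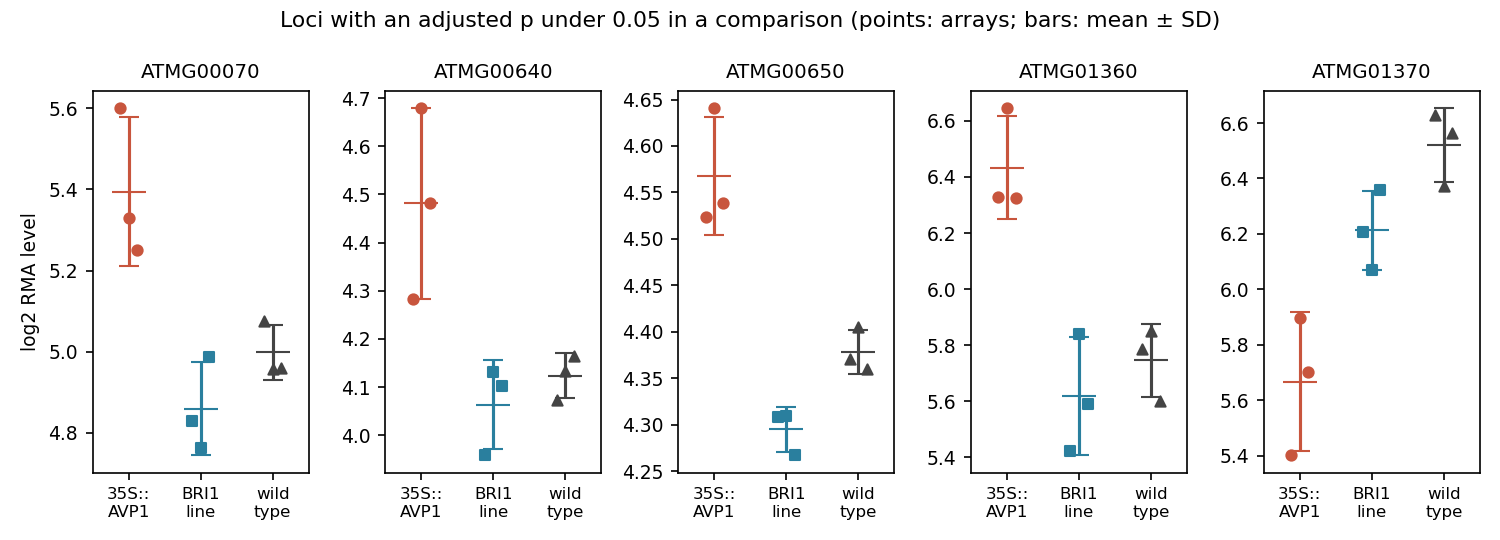
Level (log2 RMA level, a separate axis range for each panel, none starting at 0) of the 5 mitochondrion-encoded loci that had an adjusted p under 0.05 in at least 1 comparison. Points are single arrays and bars the mean ± SD of 3 arrays. ATMG01360 lies at 6.32 to 6.65 in the arrays labelled 35S::AVP1 and at 5.42 to 5.85 in the other 6, and ATMG01370 lies lowest in the arrays labelled 35S::AVP1.

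The other 27 loci had log2 differences of -0.37 to 0.34 between the arrays labelled 35S::AVP1 and wild type, and did not pass. Those with an unadjusted p under 0.05 were ATMG00650 (0.19, adjusted p = 0.0828), ATMG00690 (-0.32, adjusted p = 0.103), ATMG00150 (0.24, adjusted p = 0.127) and ATMG00140 (0.21, adjusted p = 0.139). ATMG00690 was at 5.31, 5.55 and 5.23 in the arrays labelled 35S::AVP1, at 5.61, 5.89 and 5.62 in the BRI1 line, and at 5.81, 5.57 and 5.68 in wild type. Replicate 2 labelled 35S::AVP1 was just under the lowest wild type array. ATMG00150 was at 4.10, 4.37 and 4.09 in the arrays labelled 35S::AVP1, against 3.88, 4.05 and 3.92 in wild type, and ATMG00140 was at 4.21, 4.25 and 4.11 in the arrays labelled 35S::AVP1, against 3.88, 4.13 and 3.93 in wild type. At ATMG00140 the groups overlapped in 1 array of each. That makes 8 of 31 loci at an unadjusted p under 0.05, beside 24.2% of all loci. Levels of both groups did not overlap at 8 loci, beside 28.4% of all loci: the 4 that were called, and ATMG00150, ATMG00650, ATMG00690 and ATMG01410. For 25 of the 31 loci the 95% interval lay within 1.5-fold in either direction. The widest intervals were those of ATMG00840 (-0.94 to 0.19) and ATMG01260 (-0.30 to 0.85).

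Some marker genes of other tissues also differed in these comparisons. The 4 flower markers summed to 6.93 to 7.35 on the log2 scale in the arrays labelled 35S::AVP1, to 5.83 to 6.01 in the BRI1 line, and to 6.01 to 6.17 in wild type seedlings. SEP3 (1.80) and AG (0.57) were called higher than in wild type, and AP3 (0.28) and PI (0.05) were not called. The largest part of the raised sum was SEP3, at 6.74, 6.27 and 6.24 there and 4.49, 4.82 and 4.53 in wild type. AG was at 4.13, 4.02 and 3.75 there and 3.34, 3.36 and 3.48 in wild type, all below the arrays' 25th percentiles (4.34 to 4.45). The 5 measured root markers of 6 listed summed to 11.82 to 11.84 in the arrays labelled 35S::AVP1, to 11.44 to 11.89 in the BRI1 line, and to 10.92 to 11.12 in wild type seedlings, with PYK10 called higher in the arrays labelled 35S::AVP1. PYK10 alone was at 11.79, 11.78 and 11.79 there and at 10.88, 11.05 and 10.85 in wild type, so it made up nearly all of that sum. The other 4 root markers, with differences of 0.10 to 0.36 between the arrays labelled 35S::AVP1 and wild type, were not called. In the BRI1 line PYK10 was at 11.57, 11.39 and 11.85, also above every wild type array, but not called (0.68, limma adjusted p = 0.0902). Between the lines it was not called either (-0.18). No marker is at 0 on this scale. Of the 3 green tissue markers 0 were measured. The part of these differences in the mitochondrial values was not tested. In RNA of many cell types together, a different number of cells of a type and a different amount of RNA per cell cannot be told apart.

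Loci with consecutive numbers had differences of both signs. Of the 31 loci, 22 fell into 6 runs in which the locus numbers rise in steps of 10. In the longest run, ATMG00630 to ATMG00690, 4 of 7 loci had a positive and 3 a negative difference between the arrays labelled 35S::AVP1 and wild type. In order of number these were -0.04, 0.36, 0.19, -0.17, 0.16, 0.18 and -0.32. ATMG00640 and ATMG00650 were neighbours with the same sign, and both groups of arrays were separate at each. In the run ATMG00110 to ATMG00160, 4 of 6 were positive and 0 were called. In the run ATMG01350 to ATMG01370 the differences were 0.07, 0.69 and -0.85, so that the locus with the largest rise and the only locus with a called fall carried adjacent numbers. The sources used here give no strand, transcript limits or probe positions for these loci.

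In the BRI1 line, 0 of the 31 loci differed from wild type by limma, beside 0.0818% of all loci called (0.0385% higher and 0.0433% lower). At an unadjusted p under 0.05 there were 2 members, beside 5.30% of all loci. ATMG00160 had the lowest p. It was at 4.45, 4.21 and 4.17 in the BRI1 line, against 4.97, 4.51 and 4.66 in wild type, a log2 difference of -0.43 (SE 0.13, 95% interval -0.71 to -0.15; limma adjusted p = 0.633). All 3 arrays of the BRI1 line were below the 3 wild type arrays, and the arrays labelled 35S::AVP1, at 4.62, 4.68 and 4.42, overlapped with both. The second was ATMG01370, with a log2 difference of -0.31 (95% interval -0.60 to -0.02; limma adjusted p = 0.903).

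Of the remaining loci in the BRI1 line, ATMG00060 (-0.13) and ATMG00650 (-0.08) also had levels that did not overlap with wild type. That makes 4 of 31, beside 10.1% of all loci. The median difference of the BRI1 line from wild type was -0.05 over the 31 loci, with 12 positive and 19 negative. Over all loci it was -0.01, with 9705 positive and 11072 negative. The 95% interval lay within 1.5-fold in either direction for 27 of 31 loci, and over all 31 the intervals reached from -0.96 to 0.51.

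The next 6 loci in order of p in the BRI1 line also did not pass. ATMG00060 was at 3.83, 3.83 and 3.79 in the BRI1 line, at 3.96, 3.88 and 3.98 in the arrays labelled 35S::AVP1, and at 3.84, 4.08 and 3.93 in wild type. Its levels were at or above the arrays' 10th percentiles (3.71 to 3.79). ATMG00840 had a log2 difference of -0.39 from wild type (95% interval -0.96 to 0.17; limma adjusted p = 0.959), the second largest of the 31, at levels that overlapped and are given below with its spread. ATMG00010 was at 4.62, 4.87 and 4.81 in the BRI1 line, at 4.84, 4.71 and 4.69 in the arrays labelled 35S::AVP1, and at 4.63, 4.54 and 4.73 in wild type. The BRI1 line differed from wild type there by 0.14 on the log2 scale. ATMG00140 was at 4.12, 4.04 and 4.14 in the BRI1 line, a log2 difference of 0.12 from the wild type values given above, and ATMG00130 had a difference of 0.11 at the levels given with the dimmest loci. ATMG00070 was at 4.83, 4.76 and 4.99 in the BRI1 line, a log2 difference of -0.14 from wild type. At ATMG00010, ATMG00140, ATMG00130 and ATMG00070 the BRI1 line and wild type overlapped. Further down the order of p, ATMG00640 was at 3.96, 4.13 and 4.10 in the BRI1 line, a log2 difference of -0.06, and ATMG00150 at 3.97, 4.06 and 4.01, a log2 difference of 0.06, both overlapping with wild type.

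**Figure D3:**
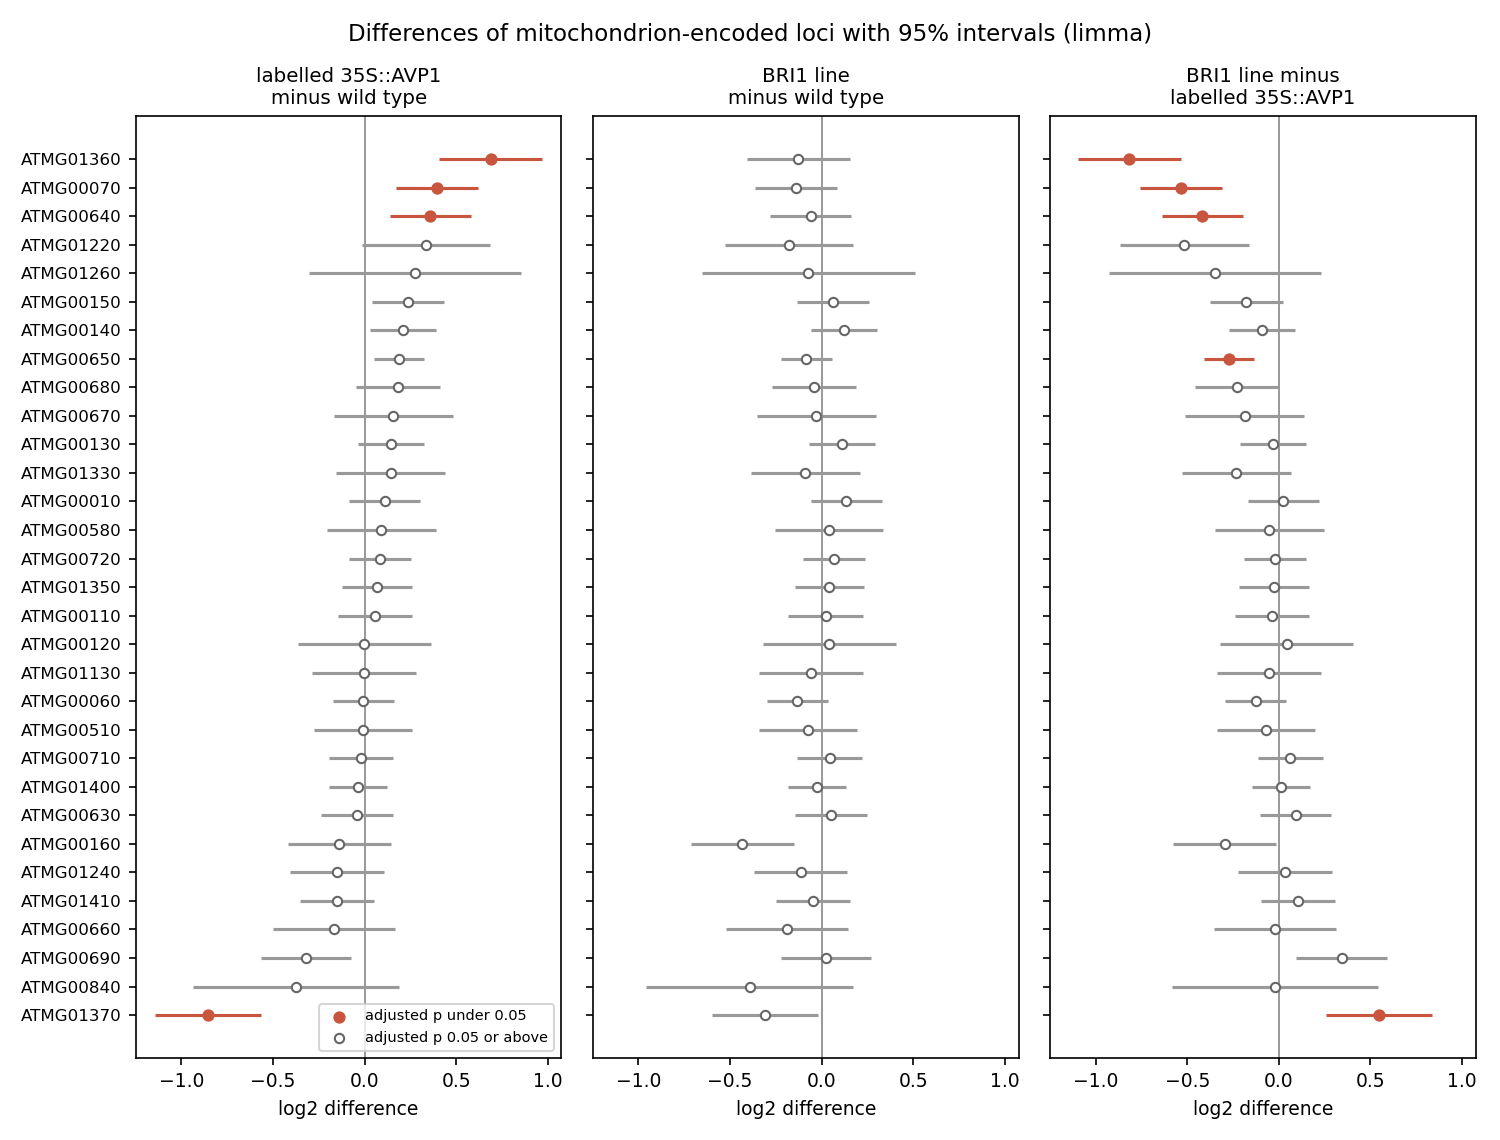
Log2 difference (horizontal axis) of each of the 31 mitochondrion-encoded loci in 3 comparisons, with 95% intervals from limma. Filled points have an adjusted p under 0.05. The 4 filled points at left, 0 in the middle panel and 5 at right are the calls given in the text, and the comparisons share arrays with each other.

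In the direct comparison of the lines, the BRI1 line differed from the arrays labelled 35S::AVP1 at 5 of 31 loci (16.1%), beside 10.3% of all loci called. This comparison shares its arrays with both comparisons against wild type and is no separate evidence for them. ATMG01360 was lower in the BRI1 line by a log2 difference of -0.82 (95% interval -1.10 to -0.53; limma adjusted p = 0.00243), ATMG00070 by -0.53 (-0.76 to -0.31; adjusted p = 0.00729), ATMG00640 by -0.42 (-0.64 to -0.20; adjusted p = 0.0242) and ATMG00650 by -0.27 (-0.41 to -0.14; adjusted p = 0.0193). ATMG01370 was higher in the BRI1 line, by 0.55 (0.26 to 0.83; adjusted p = 0.0239). The calls were thus 1 higher and 4 lower, beside 4.05% of all loci higher and 6.27% lower. At an unadjusted p under 0.05 there were 8 loci, beside 23.9% of all loci, and at 8 the lines did not overlap, beside 30.3% of all loci.

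ATMG00650 was the locus called between the lines and not against wild type. It was at 4.31, 4.31 and 4.27 in the BRI1 line, against 4.52, 4.64 and 4.54 in the arrays labelled 35S::AVP1, with wild type between them at 4.37, 4.41 and 4.36. The 3 groups did not overlap, and the distance between the lines, 0.27, was small beside that of ATMG01360. The spread between its repeats was the lowest of the 31 loci (residual SD 0.04). ATMG01220, the brightest locus, was at 6.23, 6.58 and 6.04 in the BRI1 line, against 6.79, 7.06 and 6.55 in the arrays labelled 35S::AVP1, which overlapped, and did not pass (-0.52, adjusted p = 0.0684). It passed without replicate 3 labelled 35S::AVP1 (adjusted p = 0.0414) or BRI1 line replicate 2 (0.0265). The calls of ATMG01360 and ATMG00070 between the lines held without any 1 of the 9 arrays. The other calls did not. ATMG00640 failed without BRI1 line replicate 1 or 3 or replicate 2 or 3 labelled 35S::AVP1 (adjusted p 0.0627 to 0.0902). ATMG00650 failed without BRI1 line replicate 1 or 3 or replicate 2 labelled 35S::AVP1 (0.0559 to 0.0771), and ATMG01370 without BRI1 line replicate 1 or 3 or replicate 1 or 3 labelled 35S::AVP1 (0.0555 to 0.101). The count of called loci was 2 without BRI1 line replicate 1 or 3 and 3 without replicate 2 labelled 35S::AVP1. The share of all loci called was 6.95%, 6.25% and 6.91% in those fits. With median centring 1 locus was higher and 2 were lower, beside 9.12% of all loci called.

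The spread between repeats of a genotype set how large a difference could be seen. The residual SD of the 31 loci ran from 0.04 to 0.40, with a median of 0.14, against 0.11 over all loci, and 20 of the 31 were above that median. The figure of 0.11 is not matched for level. In bins of level, the median over all loci was 0.10 around 3.75, 0.11 around 4.25, 0.13 around 4.75 and 0.15 around 5.75. ATMG01260 varied most. It was at 4.43, 5.03 and 3.78 in the arrays labelled 35S::AVP1, at 4.16, 3.81 and 4.24 in the BRI1 line, and at 3.91, 4.22 and 4.29 in wild type. Its repeats labelled 35S::AVP1 spanned 1.24 on the log2 scale, so the mean difference of 0.27 from wild type was well inside the spread. ATMG00840 was the next most variable, at 6.16, 5.30 and 6.24 in the arrays labelled 35S::AVP1, at 5.61, 5.93 and 6.10 in the BRI1 line and at 5.94, 6.63 and 6.25 in wild type. Replicate 2 labelled 35S::AVP1 was thus the highest of its genotype at ATMG01260 and the lowest at ATMG00840.

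The arrays of a genotype differed in how often they held its lowest value. Replicate 3 labelled 35S::AVP1 had the lowest of the 3 values of its genotype at 17 of 31 loci, against 6 for replicate 1 and 8 for replicate 2. In order of replicate the counts were 12, 9 and 10 in the BRI1 line and also 12, 9 and 10 in wild type. The same count was not made over all loci. The 25th percentile of all loci was also lowest in replicate 3, at 4.40 against 4.43 and 4.45, with an array median of 6.42 in each. Whether this is particular to the mitochondrial loci was not tested. The median level of the 31 loci was 4.67, 4.69 and 4.49 in the arrays labelled 35S::AVP1, in order of replicate. The medians were 4.55, 4.45 and 4.42 in the BRI1 line and 4.63, 4.51 and 4.43 in wild type. These medians overlap between the genotypes.

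**Figure D4:**
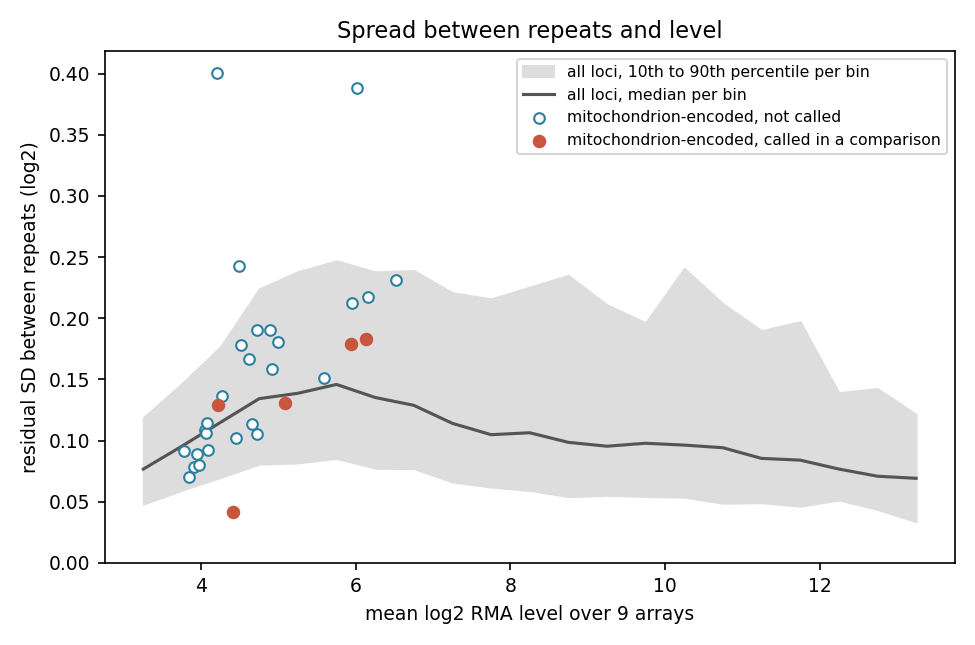
Residual SD between repeats (log2, vertical axis) against mean log2 RMA level over 9 arrays, for the 31 mitochondrion-encoded loci (points) and for all loci in bins of level (line for the median, band for the 10th to 90th percentile). Filled points are the 5 loci called in a comparison. ATMG01260 (0.40) and ATMG00840 (0.39) lie above the band, ATMG00120 (0.24) lies just above it, and ATMG00650 (0.04) below it.

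Nuclear genes whose products work in mitochondria were set beside these values. Of 14 measured nuclear-encoded respiratory subunits of 17 listed, 1 rose and 1 fell in the arrays labelled 35S::AVP1 (14.3%, beside 11.1% of all loci). FRO1 (AT5G67590, also called FROSTBITE1), an iron-sulphur subunit of complex I, was at 10.06, 9.81 and 9.90 in the arrays labelled 35S::AVP1, against 10.71, 10.58 and 10.56 in wild type. It fell there by a log2 difference of -0.69 (95% interval -0.87 to -0.51; limma adjusted p = 0.000387). GAMMA CA1 (AT1G19580), a carbonic anhydrase-like subunit of complex I, was at 7.84, 7.92 and 7.79, against 7.59, 7.68 and 7.56 in wild type. It rose there by 0.24 (95% interval 0.10 to 0.39; adjusted p = 0.0387), a call that held without replicate 3 labelled 35S::AVP1 (adjusted p = 0.0498) and was lost without each of the remaining 8 arrays (adjusted p up to 0.133), after quantile normalization (0.0648) and after median centring (0.0869).

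Of 11 genes listed under alternative respiration, 1 rose and 0 fell in the arrays labelled 35S::AVP1 (9.09%, beside 11.1% of all loci). Most of the 11, though not all, belong to routes that pass electrons around the proton-pumping complexes. NDB2 (AT4G05020), an alternative NADH dehydrogenase on the outer face of the inner membrane, was at 7.44, 7.61 and 6.99 in the arrays labelled 35S::AVP1, against 6.68, 6.66 and 6.36 in wild type. It rose by 0.78 (95% interval 0.45 to 1.11; limma adjusted p = 0.00805). Of 2 mitochondrial RNA polymerase genes and 8 genes of mitochondrial RNA processing and genome maintenance 0 were called in any of the 3 comparisons, with 1 of the 8 at an unadjusted p under 0.05 in the arrays labelled 35S::AVP1 (beside 24.2% of all loci), 0 in the BRI1 line against wild type and 3 between the lines (beside 23.9%). In the BRI1 line against wild type 0 genes of these 4 lists were called, beside 0.0818% of all loci. Of the same genes 0 had an unadjusted p under 0.05, beside 5.30% of all loci. Lists this short cannot tell 0 from such low shares. Between the lines FRO1 was higher (0.62, adjusted p = 0.000805) and NDB2 lower (-0.65, adjusted p = 0.0211) in the BRI1 line. FRO1 thus lay lower, and NDB2 higher, in the arrays labelled 35S::AVP1 than in both other genotypes. The NDB2 call between the lines failed without replicate 1 or 2 labelled 35S::AVP1 or any 1 array of the BRI1 line (adjusted p up to 0.0754).

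Of the 73 chloroplast-encoded loci, 5 rose and 7 fell in the arrays labelled 35S::AVP1 (16.4%, beside 11.1% of all loci), with a median difference of 0.02. In the BRI1 line 0 differed from wild type, beside 0.0818% of all loci, and 3 of 73 had an unadjusted p under 0.05, beside 5.30% of all loci. The share called was not tested against that of the mitochondrial loci. Chromosome 2 of Col-0 carries a large insertion of mitochondrial DNA, so that some mitochondrial genes have nuclear copies. Of 144 RefSeq loci numbered AT2G07667 to AT2G07835, the range in which such copies occur, 6 were among the measured loci. No sequence of the probes or loci was used here, and whether probes of the 31 loci also match a nuclear copy was not tested.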

How the data were processed

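RNA of the vegetative part of seedlings was hybridised to 9 arrays, 3 per genotype. The deposited values are log2 levels made by the authors with RMA, per the submitters' processing notes. RMA corrects background, normalizes quantiles between arrays and summarises probes. The sources used here give neither its version nor how probes were mapped to loci, nor which arrays were normalized as 1 set. Rows are loci, 1 value each per array. No scan dates or batches are given in the files. No 2 arrays held the same values.

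From these, limma 3.58.1 in R 4.3.3 fitted a mean for every genotype to the 20777 loci, with lmFit and eBayes (residual degrees of freedom 6, prior 3.94). In each of 3 contrasts the Benjamini-Hochberg adjustment ran across all loci, with a threshold of 0.05. The p-values reflect how far the biological repeats vary. The test was also run on simulated data with independent noise at each locus, and the outcome is not reported here. These simulated data held no spread shared by the loci of an array, so that run does not cover such spread. Symbols of nuclear genes are from RefSeq TAIR10.1.

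Values per array are given for the up to 8 loci of lowest p in each contrast and for the 3 brightest and 3 dimmest, and differences for consecutive numbers. Nuclear genes are named where they were called. Grouping by role and by trans-spliced gene, also planned, needs gene names not used here. The members and lists were chosen with earlier results of these data known. ATMG01260, ATMG00120 and ATMG01410 were named after their values were seen. Alternatives were 2 normalizations, a filter on dim loci, an intensity trend, robust eBayes, 2-genotype fits, a replicate block and leaving out each array.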

Additional observations from a re-analysis of the deposited data

How the results depend on the processing

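The alternatives gave 441 values for 29 single-locus results. Of these 392 kept direction and side of the threshold, 46 lost the call, 3 gained it and 0 changed sign. Only results called as deposited could lose a call, so the 392 include values that had no call to lose. For the arrays labelled 35S::AVP1 against wild type, ATMG00640 lost its call in 11 of 15 alternatives and GAMMA CA1 in 11 of 16. ATMG01360 and ATMG01370 kept theirs in all 15. Of the mitochondrial loci, 4 differed between the arrays labelled 35S::AVP1 and wild type. The count was 2 after quantile normalization and 2 in the fit of the 6 arrays compared. Without 1 array it was 2 to 3, with 2 without replicate 2 labelled 35S::AVP1, wild type replicate 2 or wild type replicate 3. The share of all loci called fell too, from 11.1% to 10.4%, 8.78% and 7.55% to 10.4% in that order. Between the lines 5 were called, 3 after median centring, and 2 to 6 without 1 array. The count was 2 without BRI1 line replicate 1 or 3, and 3 without replicate 2 labelled 35S::AVP1. Of all loci 10.3% were called between the lines, 9.12% after median centring, and 6.25% to 11.6% without 1 array. In the BRI1 line against wild type 0 were called under every alternative run, while the count over all loci was 17, 7 in the fit of the 6 arrays compared and 3 to 10 without 1 array. The cause of these shifts was not tested. The filter on dim loci kept 1 member, ATMG01220, so 0 were called in each contrast there, and the medians became its own differences: 0.34 in the arrays labelled 35S::AVP1 and -0.18 in the BRI1 line against wild type, and -0.52 between the lines. Under the other alternatives the medians moved by less than the SD of the members' median between repeats (0.0942). That SD is larger than the size of the medians as deposited (0.07, -0.05 and -0.05). A median could thus change sign and still move by less, so this does not show that the medians were stable. Without 1 array the medians were 0.02 to 0.09, -0.07 to -0.03 and -0.09 to -0.03 in the same order. Between the lines the members' median was -0.05, and 0.01 after median centring, which moved the median of all loci alike, to 0.00 after centring against -0.05 as deposited. Among all loci called, those higher made up 39.2% between the lines, 52.4% after quantile normalization and 56.4% after median centring. For the BRI1 line against wild type they made up 47.1%, 64.3% and 64.7% in that order.

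With the replicate number as a block, 4 members passed for the arrays labelled 35S::AVP1 and 0 for the BRI1 line, each against wild type, and 6 between the lines. The share of all loci called rose too, to 12.5%, 0.111% and 11.5% in that order, from 11.1%, 0.0818% and 10.3%. ATMG01220 was added between the lines (adjusted p = 0.0430). The labels give no pairing. Deviations of same-numbered arrays correlated at 0.02 to 0.48, over 0.1 in 5 of 9 pairs, and 5 of 9 arrays correlated best with their own number in both other genotypes. Those of differently numbered arrays correlated at -0.50 to 0.49. The highest of all pairs was wild type replicate 3 with BRI1 line replicate 2, so the numbers do not settle a pairing. Alternatives restricted to loci of known function, or to loci with no nuclear copy, were not run, since names and sequences of these loci were not used here. Low signal limits what can be seen: 12 of 31 members lay below the 25th percentile of the arrays.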
